A study of Homo sapiens with 6 samples.

Results

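The chromosome 19 zinc finger genes are the protein-coding rows of chromosome 19 in the table of gene counts whose symbol is ZNF followed by a number, and 225 of its 29845 genes met that rule. The study used A549, a cancer cell line from human lung epithelium, which received the plasmid pIRES-hrGFP-1a either empty (Control) or carrying TFAM with a FLAG tag (TFAM-OE). Polyadenylated RNA of 3 samples in each group was sequenced, and the question was which genes respond to an excess of TFAM, the protein that packs and transcribes mitochondrial DNA. Counted reads per library were 32430766, 26650854 and 37321956 for the Control (replicates 1, 2 and 3) and 33579510, 36958682 and 28735164 for TFAM-OE. The study calls the samples of a group biological replicates, and no source used here says whether they were separate cultures, so the p-values below measure only the spread between these samples, part of which may be technical. TFAM-OE replicate 3 stood apart in its group. Over the genes tested, the chi-square per degree of freedom was 61.0 against TFAM-OE replicate 1 and 26.6 against TFAM-OE replicate 2, between 8.05 and 23.8 for the other pairs within a group and between 36.8 and 91.1 for pairs across the groups.

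Human chromosome 19 carries large clusters of genes that arose by repeated duplication and encode proteins with arrays of zinc fingers, short loops in which a pair of cysteines and a pair of histidines hold a zinc ion and which read DNA. Most of these proteins begin with a KRAB domain, through which they recruit the co-repressor TRIM28 and the histone methyltransferase SETDB1. They are best known for silencing transposable elements and, in some cases, imprinted or single-copy genes.

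Of the 225 members, 167 had a mean of at least 10 reads over the 6 libraries and were tested, and 58 fell below that mean and were not. Counts were scaled between libraries by the TMM method and expressed as CPM, counts relative to library size, and groups were compared with edgeR's quasi-likelihood test, with p-values adjusted by Benjamini-Hochberg over all 16472 genes tested. Log2 fold changes are TFAM-OE over Control. In this test 13 members had lower expression with the TFAM-OE label at an adjusted p below 0.05, and 0 had higher expression. Over all genes tested, 4.88% were lower and 3.52% were higher, and among the tested members 7.78% were lower. The number of calls changed with the libraries kept. No member passed without Control replicate 1, without Control replicate 2 or without TFAM-OE replicate 2, and 30 were lower (18.0%) and 3 higher (1.80%) without TFAM-OE replicate 3, against 10.8% and 8.55% of all genes. Over all genes the lower calls went from 804 to 252, 236 and 260 without the first 3 of these libraries and to 1774 without the last. The median log2 fold change of the members was -0.20, -0.27 and -0.23 without those 3, against -0.25 with all libraries. DESeq2 called 24 members lower and 1 higher, or 14.4% and 0.599%, against 6.74% and 5.69% of all genes, and limma-voom 10 and 1, or 5.99% and 0.599%, against 4.68% and 3.41%. With limma-trend 6 and 8 members were lower by pseudocount, or 3.59% and 4.79% against 4.64% and 4.505% of all genes, and 0 were higher against 3.85% and 3.95%. With no read filter, which brings all 225 members into the test, 28 were lower and 3 higher, or 12.4% and 1.33%, against 4.98% and 3.46% of all genes. At an unadjusted p below 0.05, edgeR's test had 52 members lower and 6 higher, or 31.1% and 3.59%, against 13.4% and 12.2% of all genes tested.

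The gene TFAM (ENSG00000108064.10, chr10:58385345-58399220, plus strand) checks the labels. It was at 76.1, 70.2 and 72.7 CPM in Control replicates 1, 2 and 3 and at 71.8, 77.3 and 83.1 CPM in TFAM-OE replicates 1, 2 and 3, and the groups overlapped. Its log2 fold change was 0.08 (SE 0.10, adjusted p = 0.626 in edgeR's quasi-likelihood test), which is 1.06-fold with a 95% interval from 0.914 to 1.23. With offsets for GC content and length, described below, its log2 fold change was 0.29 and its adjusted p 0.0309, the lowest of a range up to 0.826 over the alternatives. Without TFAM-OE replicate 1 the log2 fold change was 0.13 and without TFAM-OE replicate 3 it was 0.03, the least over the alternatives, of which 0.29 was the most. Because TFAM mRNA did not pass in edgeR's test without those offsets, the second group is written below as the libraries labelled TFAM-OE. The tagged protein, which the study's methods follow by western blot with an antibody to FLAG, was not analysed here.

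The libraries had the markers of epithelial cells, with KRT8 at a mean of 696 FPKM (fragments scaled by transcript length and library size) and KRT18 at 517 FPKM, whereas EPCAM was at 0.273 and CDH1 at 0.842 FPKM. The 5 epithelial markers summed to between 1231 and 1366 FPKM in each library. SFTPB and SFTPC, which mark alveolar type II cells, had a mean of 0.50 and 1.83 reads, PECAM1, VWF and CDH5 of endothelial cells at most 2.33, and PTPRC of leukocytes 0.167. CD68, also on the leukocyte list and the most abundant gene of it, was at 1.41, 1.65 and 1.37 FPKM in the Control and 0.64, 0.77 and 0.44 FPKM in the libraries labelled TFAM-OE (log2 fold change -1.21, SE 0.24, adjusted p = 0.0155, and 0.0632 and 0.0839 without Control replicates 1 and 2). COL1A1 led the fibroblast list at 0.503 FPKM, and that list summed to 0.58, 0.60 and 0.59 FPKM in the Control and 0.32, 0.38 and 0.64 FPKM in the libraries labelled TFAM-OE. CD3E, MS4A1 and SFTPA1 were not analysed here. All 6 libraries are labelled as the A549 line, and these lists do not show that cells of other types were present. The part of these markers in the results on the members was not tested. In bulk RNA, fewer cells of a type and less RNA per cell cannot be told apart.

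What the members share in sequence can be read from the stretch that encodes a single finger. The second finger found in each of 4 members is shown from its first cysteine codon to its last histidine codon, 5′ to 3′ on the coding strand, with the codons of the zinc-holding cysteines and histidines in capitals. ZNF461 (chr19:36639460-36639522, minus strand) and ZNF845 (chr19:53351492-53351554, plus strand) are KRAB members among the 13 called lower. ZNF526 (chr19:42224731-42224793, plus strand) was lower without a KRAB box, and ZNF580 (chr19:55642872-55642934, plus strand) was 1 of the 6 members higher at an unadjusted p below 0.05. All coordinates are of GRCh38, the stretches are exonic coding sequence, and they were chosen with the fold changes known.
ZNF461: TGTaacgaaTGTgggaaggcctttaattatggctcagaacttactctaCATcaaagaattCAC
ZNF845: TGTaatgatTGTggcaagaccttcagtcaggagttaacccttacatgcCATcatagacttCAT
ZNF526: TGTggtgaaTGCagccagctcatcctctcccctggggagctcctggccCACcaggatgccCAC
ZNF580: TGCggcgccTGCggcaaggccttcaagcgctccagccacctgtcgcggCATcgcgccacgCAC
The spacing of the capitals is the same in the 4 stretches. In part the search set this, since it fixed the gap between the cysteines and the histidines and bounded the other gaps. The GC content of the stretches was 38.1% in ZNF461, 41.3% in ZNF845, 65.1% in ZNF526 and 73.0% in ZNF580.

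Most members were expressed at low levels. The median of the mean FPKM was 0.487 over the 225 members and 0.792 over the 167 tested, against 4.83 over all protein-coding genes tested. Only 69 of the 225 were above 1 FPKM and 18 above 5 FPKM, and the 5 most abundant held 32.6% of the summed FPKM of the members. These 5 were ZNF428 at 35.5 FPKM, ZNF787 at 32.9, ZNF146 at 24.3, ZNF581 at 22.2 and ZNF444 at 19.1, and none of them had a KRAB box in the search used here. ZNF146 encodes a protein made up almost wholly of fingers.

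The 58 members below the filter had 455 reads in all in the Control libraries and 380 in the libraries labelled TFAM-OE. All of them had at least 1 read in some library, 24 had fewer than 1 read a library on average, and the most abundant, ZNF490, had 9.83. A KRAB box was found in 51 of the 58. Of the tested members, 3 reached a mean of 10 reads in the Control alone and 0 in the libraries labelled TFAM-OE alone.

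The reads of all 225 members made up 0.187%, 0.177% and 0.163% of the reads in Control replicates 1, 2 and 3. In TFAM-OE replicates 1, 2 and 3 they made up 0.145%, 0.148% and 0.154%. The shares of the groups did not overlap, although Control replicate 3 and TFAM-OE replicate 3 lay close together. When each tested member was centred on its mean over the 6 libraries, on the scale of log2(CPM + 1), the median deviation was 0.22, 0.08 and 0.03 in the Control and -0.15, -0.11 and -0.04 in the libraries labelled TFAM-OE. Control replicate 1 stood highest, and it was the highest Control library for 103 of the 167 tested members and for 11 of the 13 called lower.

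**Figure D1:**
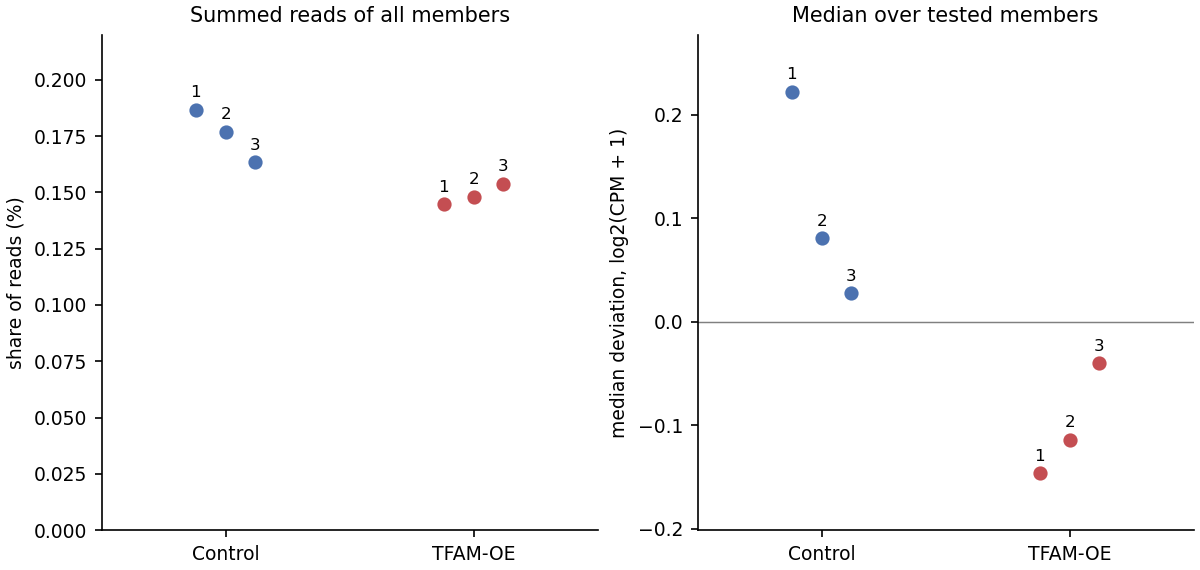
Share of all reads that fell on the 225 members (left, in percent) and median deviation of the 167 tested members from their own mean, in log2(CPM + 1) (right), with 1 point per library and replicate numbers above the points. The shares run from 0.163% to 0.187% in the Control and from 0.145% to 0.154% in TFAM-OE.

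Over the 167 tested members the log2 fold change had a median of -0.25 (quartiles -0.51 and -0.02), against -0.01 over all genes tested, and it was negative under TMM, RLE, upper-quartile and library-size scaling alike (-0.25, -0.24, -0.24 and -0.27). Of the tested members, 128 had a negative value, which is 76.6%, against 51.2% of all genes tested. ZNF genes of other chromosomes had a median of -0.19 over 228 tested genes, with 14 lower (6.14%) and 0 higher at an adjusted p below 0.05 in edgeR's test and 54 lower (23.7%) and 4 higher at an unadjusted p below 0.05, while DESeq2 called 26 lower (11.4%) and 1 higher and limma-voom 12 (5.26%) and 0. Over all genes, in the same order, 4.88%, 13.4%, 6.74% and 4.68% were lower and 3.52%, 12.2%, 5.69% and 3.41% higher. The 14 lower of these ZNF genes became 2, 1 and 2 without Control replicate 1, Control replicate 2 and TFAM-OE replicate 2. These are 0.877%, 0.439% and 0.877%, against 1.53%, 1.43% and 1.58% of all genes. Without TFAM-OE replicate 3 they became 44 (19.3%), against 10.8% of all genes. With the GC and length offsets 28 were lower (12.3%) and 6 higher (2.63%), against 7.79% and 11.4% of all genes. The other protein-coding genes of chromosome 19 had a median of 0.09 over 823 tested genes, with 41 lower (4.98%) and 57 higher (6.93%). That median ran from 0.05, without TFAM-OE replicate 1, to 0.16, without TFAM-OE replicate 3, and was 0.03 with the GC and length offsets. These medians describe the groups and were not tested against each other. Leaving out each library in turn gave a median of the members between -0.32, without Control replicate 3, and -0.20, without Control replicate 1.

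**Figure D2:**
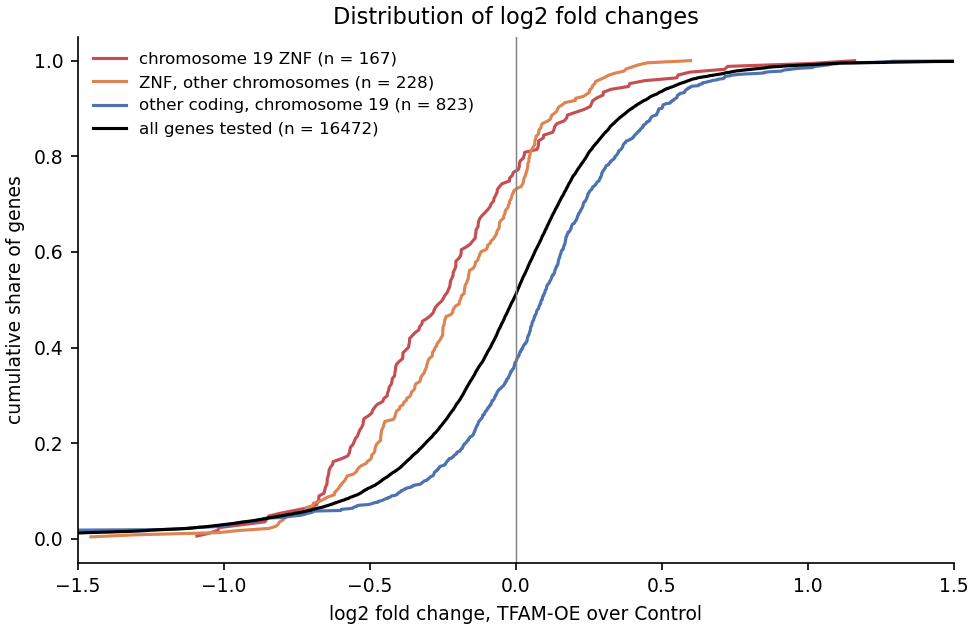
Cumulative share of genes (vertical) against log2 fold change of TFAM-OE over Control (horizontal, shown from -1.5 to 1.5) for the tested chromosome 19 ZNF genes, ZNF genes of other chromosomes, other protein-coding genes of chromosome 19 and all genes tested. The medians are -0.25, -0.19, 0.09 and -0.01.

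The 3 libraries labelled TFAM-OE lay below all 3 Control libraries for 55 of the 167 tested members, or 32.9%, against 15.9% of all genes tested. They lay above all 3 Control libraries for 9 members, or 5.39%, against 15.8% of all genes tested. At a fold change of at least 2, edgeR called 1 of the 167 tested members lower and 0 higher, against 2.09% and 0.449% of all genes tested. DESeq2, limma-voom and limma-trend also called 0 higher at 2-fold. Without the filter, with the offsets and without TFAM-OE replicate 3 the 0 became 1. The 1 member lower became 0 without Control replicate 1, without Control replicate 2 and without TFAM-OE replicate 2, 3 without Control replicate 3 and 2 without TFAM-OE replicate 3. The share of all genes at 2-fold was taken only in edgeR's fit with all libraries, so these changed counts have none beside them.

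ZNF473 had the smallest p-value of the members. It encodes a factor of the complex that cuts the 3′ end of histone pre-mRNA. ZNF473 (ENSG00000142528.15, chr19:50025714-50053414, plus strand) was at 25.9, 24.2 and 23.5 CPM in Control replicates 1, 2 and 3 and at 16.8, 15.9 and 14.97 CPM in TFAM-OE replicates 1, 2 and 3. All libraries labelled TFAM-OE lay below the lowest Control library, and the means were 24.5 ± 1.25 and 15.9 ± 0.915 CPM (SD, n = 3). Its log2 fold change was -0.63 (SE 0.11, adjusted p = 0.0104 in edgeR's quasi-likelihood test), or 0.647-fold with a 95% interval from 0.545 to 0.768. Without Control replicate 1, without Control replicate 2 and without TFAM-OE replicate 2 it had an adjusted p of 0.0634, 0.0651 and 0.0768 at log2 fold changes of -0.58, -0.63 and -0.63, and over the alternatives the adjusted p ran from 5.65e-05 to 0.0768. In GENCODE 44 the gene overlaps VRK3 on the opposite strand, and since it is not given whether the counting used strand, reads of the pair could be mixed.

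The next 3 members are KRAB zinc finger genes rich in A and T. ZNF461 (ENSG00000197808.11, chr19:36636618-36666853, minus strand), with 10 fingers, was at 10.2, 7.21 and 7.15 CPM in the Control and at 4.39, 4.59 and 5.07 CPM in the libraries labelled TFAM-OE. The groups did not overlap, with Control replicate 1 above the other Control libraries, and the log2 fold change was -0.81 (SE 0.17, adjusted p = 0.0233). ZNF845 (ENSG00000213799.10, chr19:53333749-53356906, plus strand), with 26 fingers, was at 9.12, 7.96 and 6.41 CPM in the Control and at 3.01, 4.37 and 4.90 CPM in the libraries labelled TFAM-OE. The groups did not overlap, the libraries labelled TFAM-OE being spread more widely than for ZNF461, and the log2 fold change was -0.93 (SE 0.21, adjusted p = 0.0257). ZNF302 (ENSG00000089335.20, chr19:34677639-34686397, plus strand), with 7 fingers, was at 35.1, 31.5 and 27.3 CPM in the Control and at 20.2, 23.1 and 16.2 CPM in the libraries labelled TFAM-OE. The groups did not overlap and the log2 fold change was -0.66 (SE 0.15, adjusted p = 0.0292).

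ZNF526, ZNF134 and ZNF329 were called without a KRAB box in the search. ZNF526 (ENSG00000167625.10, chr19:42220292-42228201, plus strand) was the most abundant of the called members, at 52.2, 51.7 and 50.4 CPM in the Control and 42.0, 34.6 and 32.1 CPM in the libraries labelled TFAM-OE. The Control libraries were nearly level and the groups did not overlap (log2 fold change -0.50, SE 0.12, adjusted p = 0.0302). ZNF134 (ENSG00000213762.10, chr19:57614233-57624724, plus strand) was at 18.2, 16.9 and 16.4 CPM in the Control and at 10.8, 12.4 and 12.7 CPM in the libraries labelled TFAM-OE, with no overlap (log2 fold change -0.52, SE 0.12, adjusted p = 0.0311). ZNF329 (ENSG00000181894.14, chr19:58126248-58155110, minus strand) was at 10.2, 10.4 and 10.3 CPM in the Control and at 8.08, 6.36 and 6.80 CPM in the libraries labelled TFAM-OE, again without overlap (log2 fold change -0.54, SE 0.14, adjusted p = 0.0425). ZNF526 overlaps GSK3A on the opposite strand in GENCODE 44.

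ZNF416 (ENSG00000083817.8, chr19:57571566-57578911, minus strand), a KRAB member that overlaps ZIK1 on the opposite strand, was at 9.83, 9.19 and 8.57 CPM in the Control. In TFAM-OE replicates 1, 2 and 3 it was at 6.77, 6.22 and 5.63 CPM, with no overlap between the groups (log2 fold change -0.57, SE 0.14, adjusted p = 0.0360). The 8 genes named so far are those with the smallest p-values at 50 reads or more, and each of them lost its call without Control replicate 1, without Control replicate 2 and without TFAM-OE replicate 2. In these fits their log2 fold changes were between 0.758 times, for ZNF461 without Control replicate 1, and 1.19 times, for ZNF302 without TFAM-OE replicate 2, those with all libraries. Without Control replicate 3, ZNF526, ZNF134, ZNF416 and ZNF329 lost theirs too (adjusted p = 0.0628, 0.0571, 0.0528 and 0.0859), and ZNF845, ZNF134 and ZNF329 lost theirs with limma-trend at a pseudocount of 0.1, ZNF134 also at 1. Their highest adjusted p-values over the alternatives lay between 0.0768 for ZNF473 and 0.208 for ZNF329.

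**Figure D3:**
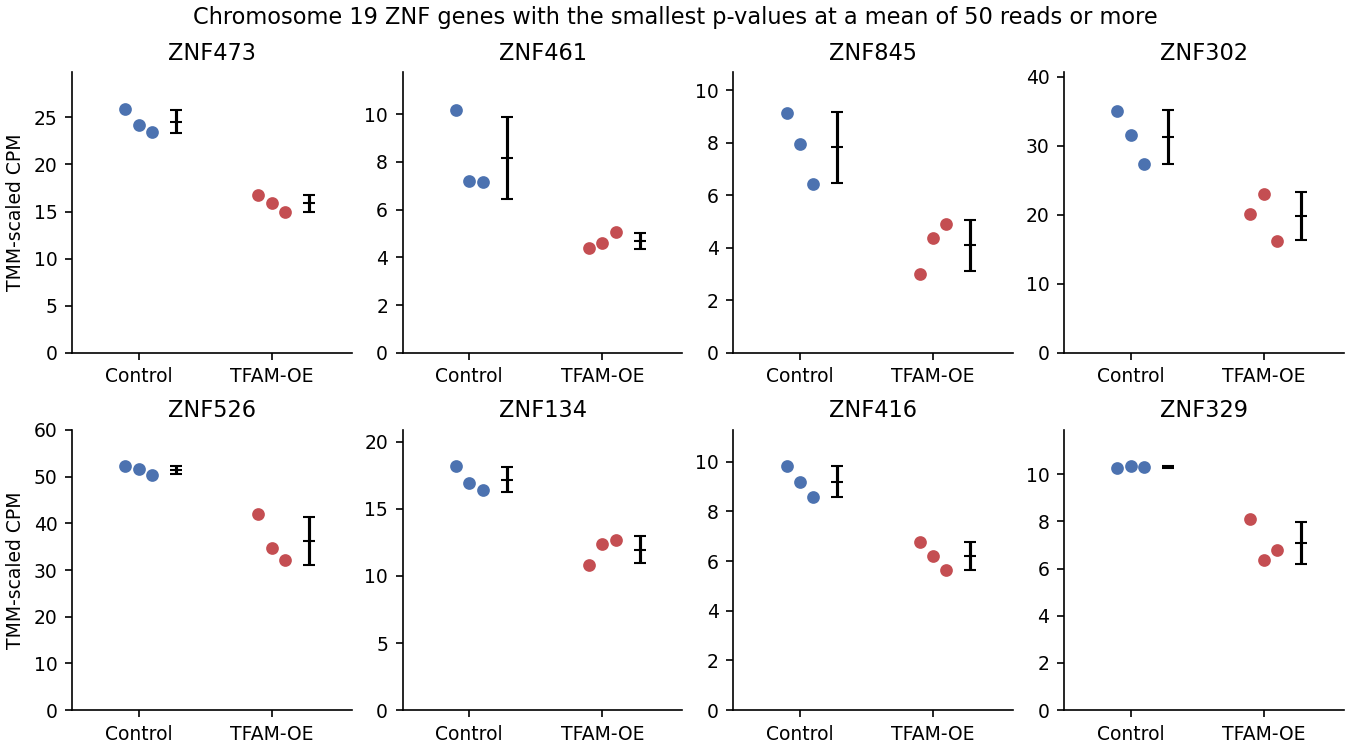
TMM-scaled CPM (vertical, each panel from 0 with its own scale) of the 8 members called lower with the smallest p-values at a mean of 50 reads or more, in the 3 Control and 3 TFAM-OE libraries, 1 point per library in replicate order, with the mean and SD beside them. In each panel the TFAM-OE points lie below the Control points.

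The other called members were ZNF554, ZNF181, ZNF766, ZNF426 and ZNF460, all with a KRAB box. ZNF554, named here after its values were seen because it was the only member called at 2-fold in edgeR's test, was at 2.68, 1.79 and 1.58 CPM in the Control and at 0.971, 1.10 and 0.90 CPM in the libraries labelled TFAM-OE. These values rest on between 27 and 90 reads a library, and Control replicate 1 was the highest. Its log2 fold change was -1.02 (SE 0.26, adjusted p = 0.0393 in edgeR's test), and 0 members passed 2-fold with limma-voom. Without Control replicate 1, Control replicate 2 and TFAM-OE replicate 2 it had an adjusted p of 0.163, 0.104 and 0.115 at log2 fold changes of -0.75, -1.09 and -1.11. The remaining 4 had log2 fold changes between -0.86 for ZNF460 and -0.57 for ZNF766, with adjusted p-values between 0.0446 and 0.0494.

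On the higher side, the smallest adjusted p was that of ZNF324B, a KRAB member. It was at 6.38, 8.22 and 9.03 CPM in the Control and at 11.8, 11.8 and 11.0 CPM in the libraries labelled TFAM-OE, with no overlap, and its log2 fold change of 0.55 (SE 0.15, adjusted p = 0.0546) missed the threshold. ZNF443 had a log2 fold change of 1.16 (SE 0.39, adjusted p = 0.0966) on 7 to 12 reads in the Control and 16 to 34 reads in the libraries labelled TFAM-OE. ZNF580 was at 26.9, 33.7 and 38.6 CPM in the Control and at 50.6, 42.7 and 36.8 CPM in the libraries labelled TFAM-OE, so its groups overlapped (log2 fold change 0.39, SE 0.16, adjusted p = 0.156), and in GENCODE 44 it overlaps ZNF581 on the same strand. Without TFAM-OE replicate 3 these 3 had adjusted p-values of 0.0238, 0.0426 and 0.0273, and without Control replicate 1 they had 0.183, 0.257 and 0.435. They were chosen after their values were seen. DESeq2 and limma-voom each called 1 member higher, and edgeR with the GC and length offsets called 4. These are 0.599%, 0.599% and 2.40% of the tested members, against 5.69%, 3.41% and 11.4% of all genes.

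Among the 5 most abundant members, ZNF146 stood closest to a call. It was at 138, 127 and 117 CPM in the Control and at 77.4, 98.3 and 103 CPM in the libraries labelled TFAM-OE, without overlap, with a log2 fold change of -0.45 (SE 0.12, adjusted p = 0.0517). It passed with DESeq2 (adjusted p = 0.0227), and over the alternatives its adjusted p ran from 0.00500 to 0.215. ZNF428, ZNF787, ZNF581 and ZNF444 had log2 fold changes of 0.13, -0.23, -0.13 and -0.10 with overlapping groups and adjusted p-values between 0.354 and 0.616. Without TFAM-OE replicate 1 these were 0.07, -0.38, -0.20 and -0.18, without TFAM-OE replicate 3 they were 0.24, -0.08, -0.04 and -0.03, and ZNF428 was at 0.07 without Control replicate 1. ZNF787 passed with the GC and length offsets (log2 fold change -0.38, adjusted p = 0.0125, in a range up to 0.667).

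Of 15 members listed for a known role, 14 were among the members of the table, and ZNF93 was not analysed here. Not all of the 14 had enough reads for the test. Of those that did, only ZNF473, described above, was called in either direction (adjusted p below 0.05, edgeR, all libraries). ZNF473 was lower, as were 4.88% of all genes tested, while 3.52% of all genes tested were higher. ZNF274, which brings SETDB1 to the 3′ ends of zinc finger genes, was at 34.7, 28.2 and 27.0 CPM in the Control and at 25.9, 26.1 and 23.3 CPM in the libraries labelled TFAM-OE. Its groups did not overlap, yet its log2 fold change of -0.25 (SE 0.13, adjusted p = 0.235) did not pass, and it was -0.13 without Control replicate 1. ZNF558, a repressor of the mitophagy gene SPATA18, was at 7.69, 6.76 and 6.20 CPM in the Control and at 5.61, 6.36 and 8.40 CPM in the libraries labelled TFAM-OE. Its log2 fold change was -0.02 (SE 0.18, adjusted p = 0.956). With each library left out it ran from -0.20 without TFAM-OE replicate 3 to 0.10 without TFAM-OE replicate 1, and over all alternatives it reached 0.14. ZNF160, described as a repressor of TLR4, had a log2 fold change of -0.44 (SE 0.27, adjusted p = 0.337) with overlapping groups, and -0.19 without TFAM-OE replicate 1 and -0.68 without TFAM-OE replicate 3. ZNF350, a partner of BRCA1, and ZNF224, a repressor of aldolase A, were at -0.44 (adjusted p = 0.286) and -0.54 (adjusted p = 0.171), also with overlap. Without Control replicate 1 they were at -0.14 and -0.35, and ZNF224 passed without TFAM-OE replicate 3 (-0.77, adjusted p = 0.0237, in a range up to 0.517). ZNF675, an inhibitor of TRAF6 signalling, was at -0.27 and ZNF331, an imprinted gene, at 0.08, with adjusted p-values of 0.346 and 0.816. ZNF675 was at -0.14 without Control replicate 1, and ZNF331 ran from -0.090 without TFAM-OE replicate 3 to 0.19 without TFAM-OE replicate 1. ZNF296 had a log2 fold change of -0.46 (SE 0.14, adjusted p = 0.0671) without overlap, and passed with DESeq2 (adjusted p = 0.0309, in a range from 0.00595 to 0.234). ZNF91, which silences SVA retrotransposons, had between 2 and 8 reads a library, ZNF649 between 3 and 11, ZNF382 between 0 and 7, and ZNF808, needed in pancreas development, between 0 and 10, too few to be tested.

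Of 21 genes on the list of co-repressors and heterochromatin factors, 21 were tested, and 0 were lower and 0 higher at an adjusted p below 0.05 in edgeR's test. At an unadjusted p below 0.05 the counts were 0 and 3, the latter 14.3% of the list against 12.2% of all genes tested. DESeq2 called 0 lower and 1 higher, or 4.76% against 5.69% of all genes, and limma-voom and limma-trend called 0 and 0. In edgeR 6 (28.6%) were higher with the GC and length offsets, against 11.4% of all genes, and 2 (9.52%) with no filter, against 3.46%. Without TFAM-OE replicate 1 it was 3 (14.3%) against 4.47%, and without TFAM-OE replicate 3 it was 1 (4.76%) against 8.55%. Their median log2 fold change was 0.18, and 0.05 without TFAM-OE replicate 3, with values from -0.21 for FAM208A to 0.42 for CBX5. The groups did not overlap for 6 of them, all higher in the libraries labelled TFAM-OE, against 15.8% of all genes tested. TRIM28 was at 211 FPKM in the Control and 240 FPKM in the libraries labelled TFAM-OE (log2 fold change 0.21, SE 0.11, adjusted p = 0.256), and SETDB1 at 3.88 and 3.79 FPKM (log2 fold change -0.02, SE 0.11, adjusted p = 0.943). With the offsets these log2 fold changes were 0.098 and 0.057. With each library left out, TRIM28 ran from 0.14 without TFAM-OE replicate 1 to 0.29 without TFAM-OE replicate 3. SETDB1 ran from -0.060 without TFAM-OE replicate 3 to 0.043 without Control replicate 1.

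Base composition and fold change were related across all protein-coding genes. The GC content of the canonical transcript had a median of 42.8% over the tested members and 49.1% over all protein-coding genes tested, and the transcripts had a median length of 3993 and 3312 bases. Over all protein-coding genes tested, the median log2 fold change was -0.15 in the lowest 10% by GC content and 0.16 in the highest 10%. Across the tested members, which share libraries and family, Spearman's rho of the log2 fold change was 0.23 with GC content and -0.25 with length (n = 167), as a description. With offsets fitted in each library for GC content and length, the median of the members was -0.17 and that of all genes 0.05, which leaves a distance of -0.23, against -0.24 without them. In that fit 19 members were lower (11.4%) and 4 higher (2.40%), and 12 of the 13 calls were kept, while over all genes tested 7.79% were lower and 11.4% higher.

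A split at 50% GC content, set after the values were seen, put 138 tested members below it and 29 at or above it. The members below had a median log2 fold change of -0.33 with 11 lower (7.97%) and 0 higher, and those at or above had -0.07 with 2 lower (6.90%) and 0 higher in edgeR's test. Of all protein-coding genes tested, 5.65% were lower and 1.40% higher below 50%, and 4.47% and 6.96% at or above it. At an unadjusted p below 0.05 the members below had 47 lower (34.1%) and 4 higher (2.90%), against 16.3% and 7.03% of all protein-coding genes there, and those at or above had 5 lower (17.2%) and 2 higher (6.90%), against 10.8% and 21.2%. Below 50% DESeq2 called 21 members lower (15.2%) and 0 higher, against 8.23% and 2.74% of the coding genes, and limma-voom 9 (6.52%) and 0, against 5.47% and 1.30%. At or above it DESeq2 called 3 lower (10.3%) and 1 higher (3.45%), against 5.95% and 10.8%, and limma-voom 1 and 1, against 4.33% and 6.88%. All protein-coding genes had a median of -0.07 below 50% and 0.08 at or above it, which ran from -0.14 to -0.02 and from 0.05 to 0.13 with each library left out. With the offsets the median below 50% was 0.07. ZNF genes of other chromosomes had -0.27 and -0.07, and -0.13 in both with the offsets. For the members, the offsets brought the medians of the split to -0.18 and -0.17. Below 50% the median was -0.22 without Control replicate 1, and at or above it -0.18 without TFAM-OE replicate 1, -0.10 without Control replicate 1, -0.044 without TFAM-OE replicate 2 and -0.0043 without TFAM-OE replicate 3. With the offsets 13 members below 50% were lower (9.42%) and 3 higher (2.17%), against 7.06% and 11.5% of all protein-coding genes there. At or above it 6 members were lower (20.7%) and 1 higher (3.45%), against 9.49% and 15.3%.

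The fingers and the KRAB box were read from the coding sequence of 224 members. The number of fingers ran from 1 in ZNF428 to 31 in ZNF91, with a median of 12, and a KRAB box was found by its conserved residues in 189 members. The search passes over diverged boxes, such as that of ZNF333. The 138 tested members with a box had a median log2 fold change of -0.28, with 108 negative and 10 called lower (7.25%). The 29 without had -0.19, with 20 negative and 3 called lower (10.3%), against 4.88% of all genes tested, and their median GC content was 62.6% against 42.4%. The order turned with the GC and length offsets, to -0.15 with a box, where 10 were lower (7.25%), and -0.25 without, where 9 were lower (31.0%), against 7.79% of all genes. It also turned with limma-trend on log2(FPKM + 1), to -0.09 and -0.13, but not on log2(FPKM + 0.1), with -0.26 and -0.20. The median FPKM was 0.6375 with a box and 4.94 without, so adding 1 shrinks the log2 ratios of the former more. Without TFAM-OE replicate 1 the medians were both -0.23, and without TFAM-OE replicate 3 they were -0.35 and -0.05. Among members without a box found, the 8 below 50% GC, with ZNF333 among them, all had negative values with a median of -0.50. Of all protein-coding genes tested below 50% GC, 59.8% had negative values. The 21 members without a box found at or above 50% had a median of -0.07, between -0.18 and -0.0043 with each library left out. With the offsets these medians were -0.34 and -0.20.

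Members with few fingers were also the GC-rich ones. The 17 tested members with up to 6 fingers had a median log2 fold change of -0.06, 0 calls in either direction in edgeR's test and a median GC content of 62.6%, with 2 lower and 2 higher at an unadjusted p below 0.05, while DESeq2 called 1 lower and 0 higher and limma-voom 0 and 0. The 72 with 7 to 12 fingers had -0.26 with 10 lower (13.9%), and the 78 with more than 12 had -0.36 with 3 lower (3.85%), against 4.88% of all genes tested. At an unadjusted p below 0.05 these classes had 23 (31.9%) and 27 (34.6%) lower, against 13.4%, and DESeq2 called 15 (20.8%) and 8 (10.3%), against 6.74%. Without Control replicate 1 the medians of the 3 classes were -0.09, -0.15 and -0.24, and with the GC and length offsets -0.11, -0.16 and -0.22. For up to 6 fingers the median was -0.12 without TFAM-OE replicate 1 and -0.011 without TFAM-OE replicate 3. With limma-trend on log2(FPKM + 1) the upper classes changed order (-0.12 and -0.10), and on log2(FPKM + 0.1) they kept it (-0.25 and -0.29). The median FPKM of the 3 classes was 4.94, 0.919 and 0.548, so members with more fingers were tested at lower levels.

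**Figure D4:**
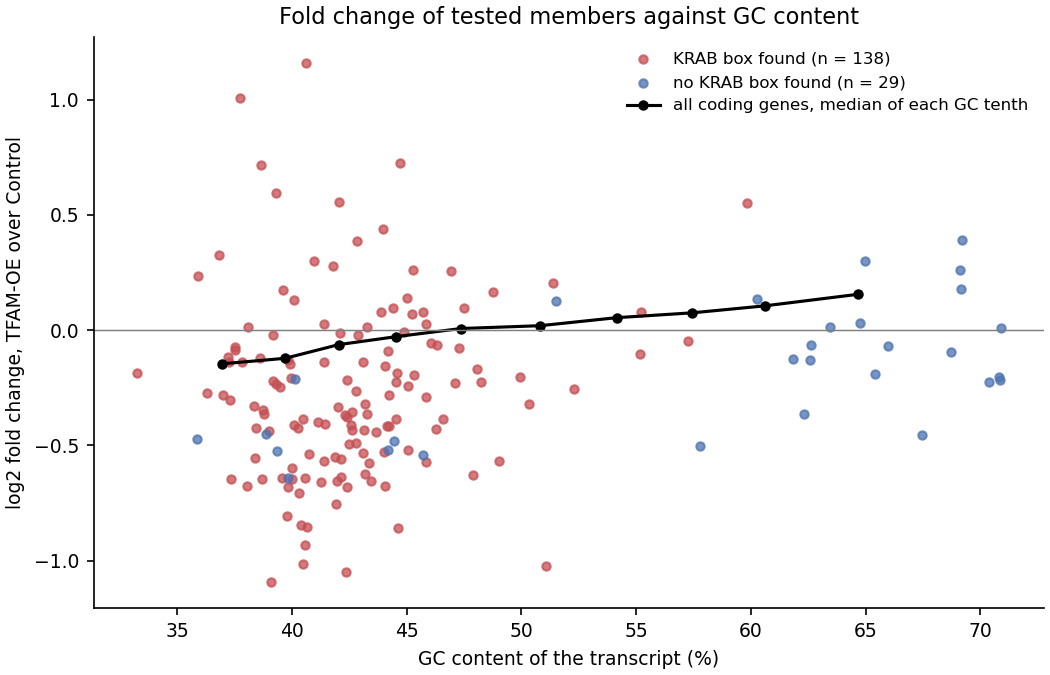
Log2 fold change of TFAM-OE over Control (vertical) against GC content of the canonical transcript in percent (horizontal) for the tested members, 138 with and 29 without a KRAB box found, with the median of all protein-coding genes in each 10% by GC content as a black line. The black line runs from -0.15 to 0.16.

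By position, the members fell into 16 clusters separated by gaps of more than 1 Mb between start sites, and 8 clusters held 5 or more tested members, 154 in all. The median log2 fold change was negative in each of the 8 in edgeR's fit. Without Control replicate 1 it was 0.05 in the cluster from ZNF101 to ZNF254, and 0.09 there with the GC and length offsets, while the other 7 stayed negative under every alternative. In edgeR's fit the lowest of the 8 medians were those of the cluster from ZNF175 to ZNF331 (chr19:51571283-53580269), at -0.43 over 20 tested members of which 18 were negative, and of the cluster from ZNF302 to ZNF792 (chr19:34677639-34964229), at -0.41 over 5. The clusters from ZNF565 to ZNF573 (chr19:36182276-37817300) had -0.30 over 20 and from ZNF575 to ZNF296 (chr19:43525497-45076478) -0.29 over 22. The order of the clusters changed between alternatives.

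The cluster from ZNF628 to ZNF446 (chr19:55476617-58481230), next to the end of the long arm, held 53 tested members with a median of -0.21, 41 negative values and 4 of the 13 calls (7.55% of its tested members, against 4.88% of all genes tested). The cluster from ZNF557 to ZNF846 (chr19:7069703-9793180) had a median of -0.24 over 14. The clusters from ZNF653 to ZNF791 (chr19:11483427-12640098) and from ZNF101 to ZNF254 (chr19:19668796-24129968) had medians of -0.16 over 8 and -0.13 over 12, and 12 of 20 and 13 of 25 of their members were below the filter. With the GC and length offsets the median was -0.28 from ZNF175 to ZNF331, -0.18 from ZNF565 to ZNF573, -0.10 from ZNF575 to ZNF296, -0.16 from ZNF557 to ZNF846 and -0.099 from ZNF653 to ZNF791. Each of the 8 clusters held members with negative and members with positive values. Without Control replicate 1 the median was -0.07 from ZNF653 to ZNF791, -0.17 from ZNF565 to ZNF573, -0.12 from ZNF575 to ZNF296 and -0.27 from ZNF175 to ZNF331. From ZNF101 to ZNF254 the median was -0.012, -0.25 and -0.017 without Control replicates 2 and 3 and TFAM-OE replicate 1. Without TFAM-OE replicate 3 it was -0.37 from ZNF557 to ZNF846 and -0.47 from ZNF565 to ZNF573, and without TFAM-OE replicate 1 it was -0.17 from ZNF575 to ZNF296.

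**Figure D5:**
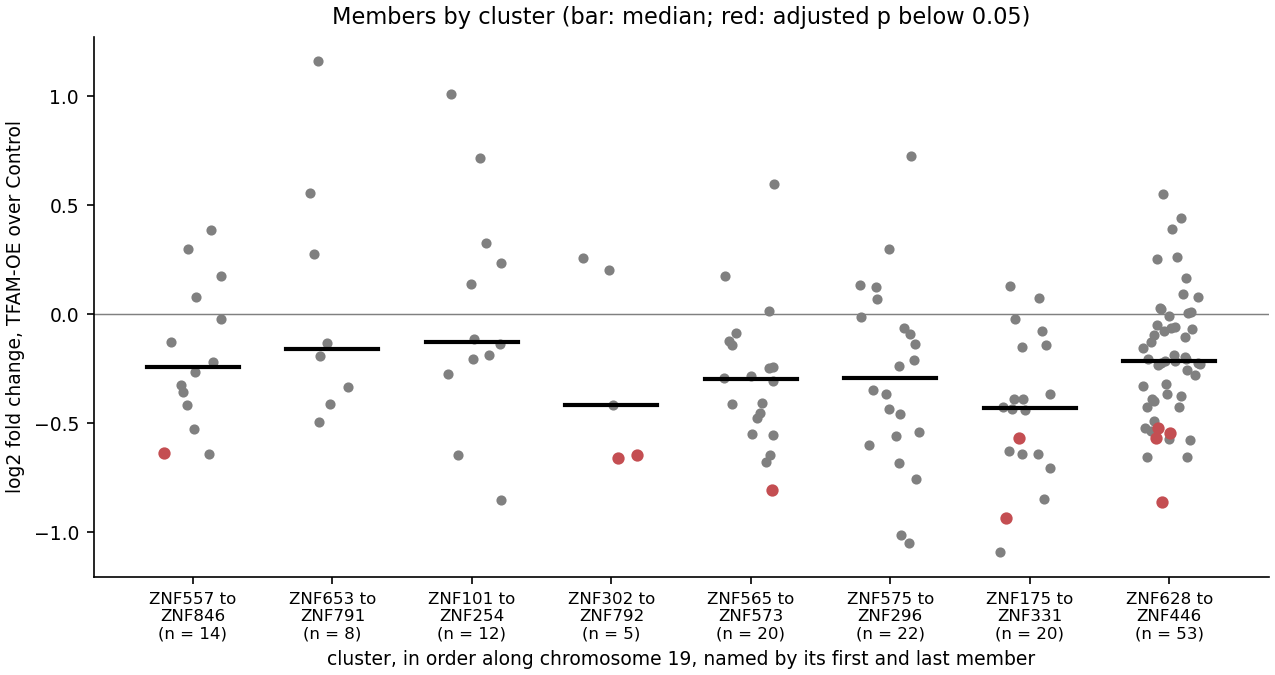
Log2 fold change of TFAM-OE over Control of the tested members in the 8 clusters with 5 or more of them, in their order along chromosome 19, with a bar at each median and members at an adjusted p below 0.05 in red. The medians lie between -0.43 and -0.13.

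RefSeq promoters (GRCh38.p14), from 250 bases before to 50 bases after the start, were matched by symbol for 198 of the 225 members, and 5 motifs, chosen with the fold changes known, were searched on both strands. The sequence CCGGAAG, the core bound by ETS factors, was found in 45.5% of the members' promoters, 35.6% of those of ZNF genes on other chromosomes, 14.02% of the other promoters of chromosome 19 and 10.7% of all 27305 promoters. In the same order, GGGCGG was found in 66.7%, 61.4%, 61.4% and 44.6% and TGACG in 35.4%, 35.1%, 30.4% and 25.01%. CACGTG was found in 4.55%, 6.44%, 8.003% and 7.43%, and AAAAAA in 8.59%, 20.3%, 11.2% and 17.7%. CCGGAAG and GGGCGG overlapped in 1 of the members' promoters. The median GC content of the promoters was 60.3% for the members and 58.3% for all.

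The promoters of 3 called members are shown 5′ to 3′ on the strand of the gene, with CCGGAAG and GGGCGG on either strand in capitals. They are those of ZNF461 (chr19:36666788-36667087, minus strand), ZNF845 (chr19:53333499-53333798, plus strand) and ZNF302 (chr19:34677428-34677727, plus strand). A match describes the letters and was not tested as a binding site.
ZNF461: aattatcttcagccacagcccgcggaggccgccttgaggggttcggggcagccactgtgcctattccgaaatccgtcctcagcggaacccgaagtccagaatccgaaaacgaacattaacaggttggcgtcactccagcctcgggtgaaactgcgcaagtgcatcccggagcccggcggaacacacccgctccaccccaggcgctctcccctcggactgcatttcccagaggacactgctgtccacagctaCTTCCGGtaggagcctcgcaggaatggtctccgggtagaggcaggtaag
ZNF845: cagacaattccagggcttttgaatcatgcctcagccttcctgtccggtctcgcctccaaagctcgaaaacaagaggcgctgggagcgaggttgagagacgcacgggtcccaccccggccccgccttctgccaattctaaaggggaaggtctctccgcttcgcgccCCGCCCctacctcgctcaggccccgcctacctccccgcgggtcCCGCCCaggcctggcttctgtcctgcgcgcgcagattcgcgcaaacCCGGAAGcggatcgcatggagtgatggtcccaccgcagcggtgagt
ZNF302: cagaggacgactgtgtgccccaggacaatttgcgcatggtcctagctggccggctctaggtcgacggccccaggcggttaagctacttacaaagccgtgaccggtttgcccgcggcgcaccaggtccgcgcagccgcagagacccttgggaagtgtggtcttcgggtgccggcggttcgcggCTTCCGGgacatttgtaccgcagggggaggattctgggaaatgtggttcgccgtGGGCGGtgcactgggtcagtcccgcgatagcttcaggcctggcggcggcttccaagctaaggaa
Each holds CCGGAAG 1 time, on either strand, and GGGCGG was found 0 times in ZNF461, 2 times in ZNF845 and 1 time in ZNF302. Called members also lacked these motifs. Of 71 tested members with CCGGAAG 8 were lower (median log2 fold change -0.32), and of 79 without it 4 (median -0.24). For GGGCGG it was 10 of 88 with it (median -0.23) and 2 of 62 without it (median -0.32). Over all genes tested 4.88% were lower, and these groups were not tested against each other.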

How the data were processed

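Gene expression was measured by RNA sequencing of A549 cells, with 3 libraries in each of the groups. The authors trimmed reads with the FASTX-Toolkit, aligned them to GRCh38 with TopHat2, counted uniquely mapped reads per gene and deposited these raw counts together with FPKM values per library. How genes were counted, on which annotation and whether by strand, is not given here, and reads of near-identical members may be lost or misplaced. Genes with a mean of at least 10 reads were fitted together in R (4.3.3) with edgeR (4.0.16), with limma (3.58.1) and DESeq2 (1.42.0) as alternatives, two-sided, and the calls were tested on simulated data, drawn without gene-specific dispersion, in which the share of false calls was not lower with the filter than without it. With 3 against 3 samples an exact permutation test cannot go below 0.1. FPKM was used as deposited for levels. GENCODE 44 gave coordinates, transcripts and coding sequences, matching 97.2% of genes. Fingers and KRAB boxes were searched in the translated coding sequences, in place of the RefSeq proteins that were planned, and the KRAB pattern was broadened after fold changes had been seen. Named genes were up to 8 members per direction with the smallest p-values among non-overlapping calls at a mean of 50 reads or more, the 5 of highest FPKM, 15 of known role, called co-repressors and TFAM. The members and lists were chosen with earlier results of these data known. Tables were handled in Python (3.11.15). Unused value columns numbered 0.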

Additional observations from a re-analysis of the deposited data

How the results depend on the processing

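The direction of the members held more firmly than the number of calls. Their median log2 fold change, -0.25, was negative under each of the 19 alternatives and between -0.32 and -0.20 with each library left out. It moved by more than the spread between replicates with limma-trend on log2(FPKM + 1), to -0.11. That scale adds 1 to levels with a median of 0.792 FPKM over the tested members, which by arithmetic makes log2 ratios smaller in size. With limma-trend on log2(FPKM + 0.1) the median was -0.25. The 13 members lower (7.78%, against 4.88% of all genes) became 24 with DESeq2 (14.4%, against 6.74%). They became 6 and 8 with limma-trend on log2(FPKM + 0.1) and log2(FPKM + 1) (3.59% and 4.79%, against 4.64% and 4.505%). With library size alone they became 8 (4.79%, against 4.21%) and with no filter 28 (12.4%, against 4.98%). The count ran from 0 to 30 with each library left out. The 0 members higher became 1 with DESeq2, 1 with limma-voom, 3 with no filter and 4 with the GC content and length offsets. These are 0.599%, 0.599%, 1.33% and 2.40%, against 5.69%, 3.41%, 3.46% and 11.4% of all genes. With each library left out the count ran from 0 to 3. At 2-fold, the 1 member lower became 0 with limma-voom, with both limma-trend fits, with library size alone, with a mean of 50 reads and with the GC content and length offsets, and 2 with no filter, and ran from 0 to 3 with each library left out. The 0 members higher at 2-fold became 1 with no filter and 1 with the offsets, and ran from 0 to 1. The share of all genes at 2-fold was not taken in these alternatives. The cause of the changes in these counts was not tested.

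With no filter the number of genes tested rose from 16472 to 29845, and edgeR's prior degrees of freedom became infinite, so no gene kept a spread of its own. Same-numbered libraries did not deviate together (r = -0.21, 0.000141 and -0.26), so the numbers do not pair the samples. With the replicate number as a block, 0 members were lower and 0 higher (40 and 3 at an unadjusted p below 0.05), against 1.80% and 0.480% of all genes, 0 were lower at 2-fold, and the 8 named members called lower lost their calls, with log2 fold changes between 0.977 and 1.02 times those without the block. With the block and the offsets 9 were lower (5.39% against 4.35% of all genes), 0 were higher (against 4.52%) and 0 were lower at 2-fold, and 3 of the co-repressors (14.3%) were higher.

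Of 418 single-gene alternatives over 22 named genes, 356 kept direction and side of the threshold, 42 lost the call and 14 gained it, and 6 changed sign. ZNF558 had log2 fold changes of 0.13 with the offsets, 0.14 with the block and the offsets, 0.07 without Control replicate 1, 0.10 without TFAM-OE replicate 1 and 0.02 without TFAM-OE replicate 2, and ZNF331 had -0.090 without TFAM-OE replicate 3, in a range up to 0.19 without TFAM-OE replicate 1. Depth limits what can be said of the 58 members below 10 reads a library.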

Other observations

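Of 11 other protein-coding zinc finger genes of chromosome 19, with symbols beginning with ZFP, ZSCAN or ZIK, 7 were tested, and their median log2 fold change was -0.38. The values were -0.56 for ZFP82, -0.55 for ZFP14, -0.47 for ZFP30, -0.38 for ZSCAN5A, -0.09 for ZSCAN22, 0.05 for ZFP28 and 0.07 for ZSCAN18, and edgeR's test called ZFP14 alone at an adjusted p below 0.05, against 4.88% of all genes tested. ZFP14, a KRAB gene with 13 fingers, was at 5.81, 5.83 and 5.92 CPM in the Control and at 3.76, 4.04 and 4.17 CPM in the libraries labelled TFAM-OE, with no overlap (log2 fold change -0.55, SE 0.14, adjusted p = 0.0403 in edgeR's test). Its adjusted p was above 0.05 with each library left out except TFAM-OE replicate 3 (0.0286) and reached 0.164 without TFAM-OE replicate 2, where the log2 fold change was -0.56. With the GC content and length offsets the log2 fold change was -0.33 and the adjusted p 0.1498. It was chosen after its values were seen. ZFP36, whose fingers are of another kind, was not counted among them.

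Of 16 rows of chromosome 19 with a ZNF symbol that are not protein coding, 4 were tested, with a median log2 fold change of 0.14. The groups did not overlap for 2 of them, ZNF561-AS1 and ZNF529-AS1, both higher in the libraries labelled TFAM-OE, against 15.8% of all genes tested (log2 fold changes 0.28 and 0.39, adjusted p = 0.422 and 0.249 in edgeR's test).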
